A study of Drosophila melanogaster with 2 samples.

Results

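Autosomal runs of 4 or more Sin3A peaks are stretches in which neighbouring binding regions follow each other at distances of at most 5 kb. They were mapped in whole Drosophila melanogaster embryos. Peaks on the autosomal arms 2L, 2R, 3L and 3R were sorted by start, and a peak was joined to the one before it where its start lay no more than 5000 bp after the other's end. Members were thus chosen by peak positions alone, and runs that reached 4 peaks were kept. They held 736 peaks in 159 runs, out of 3277 peaks on these 4 arms and 4046 peaks in the whole list. The other 2541 peaks of the same arms served for comparison.

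The data came from chromatin of embryos 0 to 12 h after egg laying, untreated, precipitated with an antibody against Sin3A and sequenced. The protocol names the iso1 strain (y; bw cn sp) or transgenic flies as the source, without saying which was used. The ChIP was represented by 1 sample, titled as replicates 1 and 2 together. An input sample accompanied it and was not analysed here. Whole embryos of this window mix many stages and cell types, so peaks that lie side by side in the list need not have been bound in the same cells.

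Sin3A is the scaffold of a conserved corepressor complex. It binds DNA through partner proteins and brings the histone deacetylase Rpd3 (HDAC1) to chromatin, where removal of acetyl groups from histones is associated with reduced transcription. The complex is essential for fly development. Sin3 complexes are also found at the promoters of many active genes. Peak clusters of a cofactor of this kind can span several neighbouring promoters or several elements of 1 locus. No gene annotation or sequence of the build used, BDGP5, was used here, so the runs are given by position.

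Each peak carries a start, an end and a score by the authors, whose scale the file does not name. Scores are used only to rank and describe peaks within this list, and no ratios of them are formed. Positions chose the members, and scores and widths come from the same peak calls, so every comparison of runs with other peaks is a description without a test. Because the replicates share 1 list, replicate error cannot be given, and the read depth is unknown. Intervals are exact binomial 95% intervals over peaks or runs. They cover counting error only and treat neighbours as independent.

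Most runs were short. Of the 159 runs, 97 had 4 peaks, 37 had 5, 17 had 6, 4 had 7, 3 had 8 and 1 had 9. Runs of 4 thus held 388 of the 736 peaks. The median run spanned 12.2 kb from the first start to the last end (quartiles 9.43 and 14.8 kb, range 3.50 to 36.1 kb). All runs together spanned 2.00 Mb, or 2.11% of the 94.8 Mb between the first and last peaks of the 4 arms. They held 22.5% of the peaks of these arms (interval 21.0 to 23.9). A high density of peaks in runs follows from the rule, which keeps only closely spaced peaks. Among the other peaks, 1068 stood alone, 906 lay in pairs and 567 in runs of 3.

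**Figure D1:**
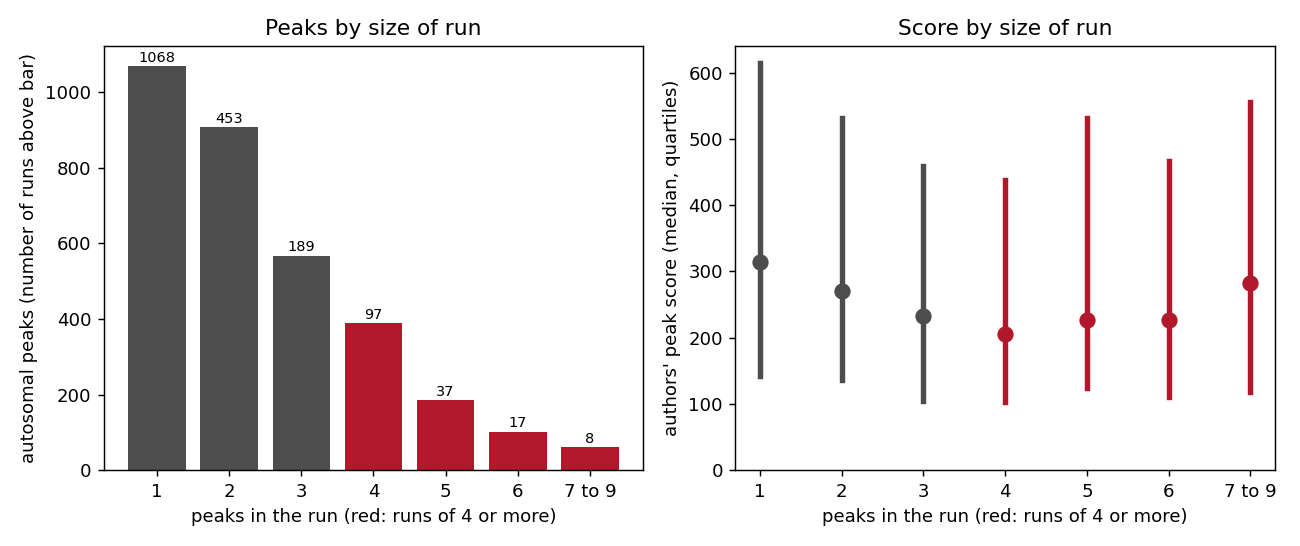
Left, number of autosomal peaks (y axis) by the number of peaks in their run (x axis), with the number of runs above each bar; right, the median and quartiles of the authors' peak score for the same classes. Red marks runs of 4 or more, with runs of 7, 8 and 9 pooled into 1 class. The medians of these 4 classes, 206 to 282, lie below the 314 of single peaks.

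Every large autosomal arm contributed runs at a like rate. In runs lay 173 of 700 peaks on 2L (24.7%, interval 21.6 to 28.1), 236 of 991 on 3R (23.8%, interval 21.2 to 26.6), 168 of 811 on 2R (20.7%, interval 18.0 to 23.7) and 159 of 775 on 3L (20.5%, interval 17.7 to 23.5). The 4 intervals overlap. By number, 52 runs lay on 3R, 37 on 2L, 35 on 2R and 35 on 3L, which is 1.87, 1.65, 1.67 and 1.49 runs per Mb. Applied to the X, outside the rule, the same joining gave 26 runs with 119 of 731 peaks, or 16.3% (interval 13.7 to 19.2), below the 22.5% of the autosomal arms. The X interval overlaps those of 2R and 3L but not those of 2L and 3R. On chromosome 4 the joining gave 0 runs from 26 peaks, which allows a share of up to 13.2% by the exact interval.

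The largest distance that holds a run together was exactly 5000 bp, before a peak at 2L:2998720-3000099 in a run of 4. The next were 4994 bp on 3L and 4985 bp on 3R. Just outside, a run of 6 on 2R that starts at 4996568 was parted from its neighbour by 5008 bp, a run of 4 on 3R by 5014 bp and a run of 7 on 2L by 5022 bp. Distances are dense around the limit: 90 autosomal gaps lay between 4500 and 5000 bp and 71 between 5000 and 5500 bp. A limit of 4500 bp would have given 602 peaks in 133 runs, and one of 5500 bp 844 peaks in 177 runs. The runs therefore grade into looser spacings without a break at the limit.

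Peaks in runs scored lower than other autosomal peaks. The median score in runs was 224 (quartiles 109 and 464, range 50.19 to 1883), against 279 for the other peaks (quartiles 131 and 549, range 50.05 to 2484), a difference of -55.6. The quartile ranges overlap over most of their length. The difference was negative on each arm. On 3L the median was 206 in runs and 298 elsewhere, on 3R 223 and 305, on 2L 229 and 260, and on 2R 246 and 261. On the X the medians were 268 in runs and 317 elsewhere.

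Much of this difference was already present in smaller groups. The median score was 314 for single peaks, 270 for peaks in pairs, 233 in runs of 3 and 206 in runs of 4. It did not fall further in longer runs, being 227 in runs of 5, 227 in runs of 6 and 282 over the 61 peaks in runs of 7 to 9. Within that last class it was 336 in runs of 7, 217 in runs of 8 and 485 in the run of 9, on 28, 24 and 9 peaks, so that runs of 7 and 9 lay above single peaks. Against single peaks alone, peaks in runs of 4 or more were lower by a median score difference of -90.2.

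Weak and strong peaks both occurred in runs, in different shares. Autosomal peaks were divided by score into 10 equal groups, or deciles. Of the lowest decile (50.05 to 72.26), 92 of 328 lay in runs, or 28.0% (interval 23.3 to 33.2). Of the highest decile (865.41 to 2483.68), 55 of 328 did, or 16.8% (interval 12.9 to 21.3). The deciles between ran from 18.0% to 25%. Counted from the other side, 7.47% of peaks in runs belonged to the highest decile (interval 5.68 to 9.62), against 10.7% of the other peaks (interval 9.57 to 12.0).

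**Figure D2:**
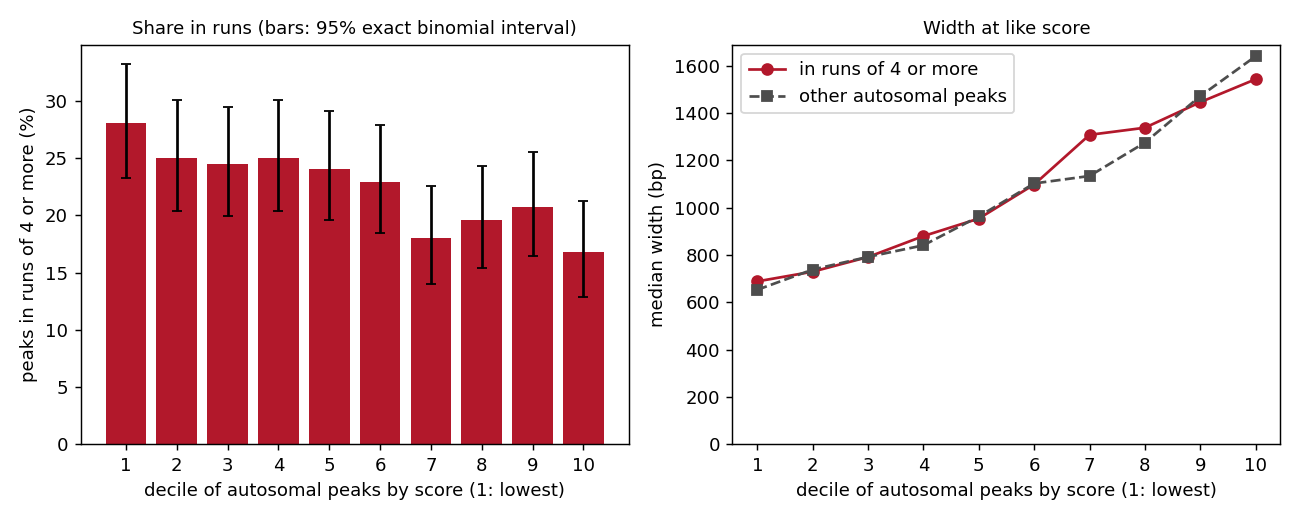
Left, percentage of autosomal peaks in runs of 4 or more (y axis) for 10 equal groups of peaks by score (x axis, lowest to highest), with exact binomial 95% intervals; right, median width in bp of peaks in runs (red) and of other autosomal peaks (grey) in the same groups. The share is 28.0% in the lowest decile and 16.8% in the highest, and the width curves cross several times.

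Width differed little. The median width was 983 bp in runs, with quartiles at 750.5 and 1357 bp, against 1017 bp for the other peaks, with quartiles at 770 and 1396 bp. The difference of -34 bp was small beside the quartile range, and on 2R it had the other sign (1030 bp in runs, 1008 bp elsewhere). Within deciles by score, peaks in runs had the larger median width in 4 of 10 and the smaller in the rest. The extremes were 174 bp wider in the seventh decile (1308 bp in runs, 1134 bp elsewhere) and 97 bp narrower in the highest decile (1543 bp in runs, 1640 bp elsewhere). Across peaks, score and width had a Spearman rho of 0.70 in runs (n = 736) and 0.70 among the other peaks (n = 2541). Both measures are made from the same reads.

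Scores within a run spread widely. Ranked by score within their run, the strongest peaks had a median score of 665 (quartiles 447 and 925), those of rank 2 had 339, those of rank 3 had 177 and those of rank 4 had 105. The weakest peak of each run had a median of 77.8 (quartiles 58.4 and 111). It scored under 100 in 112 of 159 runs, or 70.4% (interval 62.7 to 77.4). The lower quartile of all autosomal peaks was 125. A decline with rank follows from ranking, as does a low weakest peak among 4 or more, and the values only give their size. The distance in score between the strongest and the weakest peak of a run had a median of 574 (range 37.6 to 1784).

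Most runs crossed the middle of the list. The median score of autosomal peaks is 265. In 144 runs, or 90.6% (interval 84.9 to 94.6), at least 1 peak lay at or above it and at least 1 below. As many autosomal peaks lie above a median as below it, so most sets of 4 or more peaks would hold both kinds. The count is therefore not a trait of runs. The second-ranked peak was at or above it in 104 runs (65.4%, interval 57.5 to 72.8) and the third-ranked in 42 (26.4%, interval 19.7 to 34.0). In 13 runs every peak was below the median, and in 2 runs every peak was at or above it. These counts also depend on the number of peaks ranked. No reference share was worked out, so they only describe the runs. Neighbouring peaks of a run were not matched in strength: over 577 neighbouring pairs, Spearman's rho was 0.01 for score and 0.05 for width. These pairs share peaks, since each inner peak belongs to 2 of them.

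**Figure D3:**
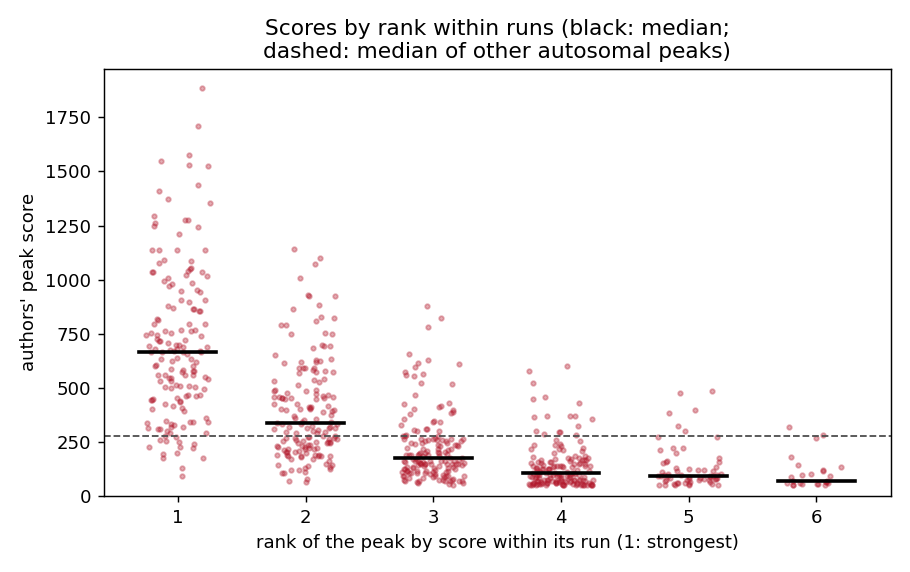
Authors' score (y axis) of each peak in a run of 4 or more against its rank by score within that run (x axis, 1 is the strongest, ranks up to 6 shown), with the median of each rank as a black bar. Medians are 665, 339, 177 and 105 for ranks 1 to 4, and the dashed line marks the median of the other autosomal peaks, 279.

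A peak of the highest decile was present in 46 of 159 runs, or 28.9% (interval 22.0 to 36.6). Of these, 38 runs held 1 such peak, 7 held 2 and 1 held 3. Counted per peak, 7.47% of peaks in runs were of this decile, against 10.7% of other autosomal peaks. A run has 4 or more peaks that could be one, so the share of runs does not show an excess. Runs of 5 or more reached higher scores than runs of 4: the median of the highest score was 574 in runs of 4, 769 in runs of 5, 675 in runs of 6 and 654 in runs of 7 to 9. More peaks give more chances of a high one. Across the 159 runs, the number of peaks and the highest score had a Spearman rho of 0.21.

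Taken over all runs, outer peaks scored higher than inner ones. The 318 first and last peaks had a median score of 259 and a median width of 1073 bp, against 200 and 929 bp for the 418 peaks inside. The score difference was 58.9 over all arms, 114 on 3R, 39.5 on 2R, 35.8 on 2L and 28.7 on 3L. In width the outer peaks were larger by 231 bp on 3R, 165 bp on 2L and 109 bp on 2R, and differed by -6 bp on 3L. In runs of 5 the median scores from first to last peak were 300, 204, 141, 225 and 455. In runs of 6 they were 320, 148, 156, 261, 217 and 334. In runs of 4 they were 224, 244, 176 and 246, so that the first peak was not above the second. Over the 8 runs of 7 to 9 the order of scores was turned, with a median of 236 for 16 outer peaks and 292 for 45 inner peaks. Within them, outer peaks scored lower in runs of 8 (175 against 242 inside) and higher in runs of 7 (375 against 336) and in the run of 9 (617 against 321). The order of widths was not turned over these 8 runs, with medians of 1170 bp outside and 1094 bp inside.

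The strongest peak of a run lay at an end in 83 of 159 runs, or 52.2% (interval 44.1 to 60.2), while ends made up 44.7% of positions on average over runs. That interval includes 44.7%. In runs of 4, where ends are 50% of positions, it was 58 of 97 runs (59.8%, interval 49.3 to 69.6). In runs of 5 it was 19 of 37 (51.4%, interval 34.4 to 68.1) and in runs of 6 it was 6 of 17 (35.3%, interval 14.2 to 61.7). In the 8 runs of 7 to 9 it was 0 of 8 (interval up to 36.9%), where ends are 26.4% of positions on average. The weakest peak lay at an end in 61 of 159 runs, or 38.4% (interval 30.8 to 46.4).

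**Figure D4:**
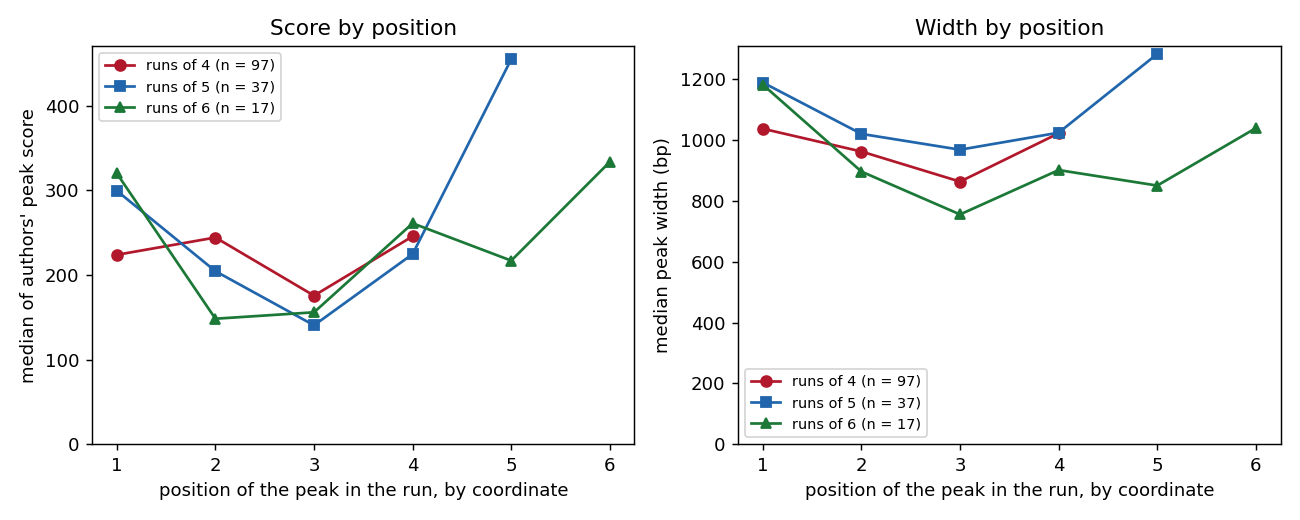
Median score (left, y axis) and median width in bp (right, y axis) of peaks by their position along the run (x axis, by coordinate) for runs of 4, 5 and 6 peaks. In runs of 5 the first and last peaks have median scores of 300 and 455 and the middle peak 141.

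Spacing within runs covered the entire range that the rule allows. The 577 distances between neighbouring peaks ran from 1 to 5000 bp, with a median of 1972 bp and quartiles at 694 and 3313 bp. At most 500 bp separated 126 pairs, or 21.8% (interval 18.5 to 25.4), and 104 of 159 runs held at least 1 such pair. In 55 runs every distance was above 500 bp. Close spacing was not particular to these runs. By median, joined distances were shorter in smaller groups, at 1482 bp in pairs and 1723.5 bp in runs of 3. Joining all autosomal peaks up to 500 bp apart left 2929 regions from 3277 peaks, so such pairs also occurred outside these runs. Peaks with a neighbour in their run at most 500 bp away were weaker and narrower, with a median score of 177 and a median width of 879 bp (n = 243), against 258 and 1067 bp for peaks in runs without one (n = 493). Whether such a pair is 1 broad region that the caller divided was not tested.

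These close pairs bear on the number of runs. Outer and inner peaks were also compared among peaks with and without a close neighbour. With peaks up to 500 bp apart joined into 1 region, 90 of the 159 runs still held 4 or more regions (56.6%, interval 48.5 to 64.4) and 69 did not. No run became 1 region. Among peaks without such a close neighbour, outer peaks scored 291 and inner peaks 236 at the median, with widths of 1150 and 1001 bp. The difference in score, 54.8, was of the size seen over all peaks in runs. Among peaks with a close neighbour the medians were 186 for outer and 169 for inner peaks, with widths of 893 and 868 bp.

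The stronger partner of a pair scored more as the distance grew. For pairs at most 500 bp apart the median score was 102 for the weaker and 268 for the stronger peak. Between 1000 and 2000 bp the medians were 123 and 397, and between 4000 and 5000 bp 156 and 585. The weaker score did not rise steadily. It was 82.0 from 500 to 1000 bp, 131 from 2000 to 3000 bp and 125 from 3000 to 4000 bp. The summed width of the pair was 1803 bp in the closest class and 2275 bp in the widest. In between, the order held for the summed width except in the class from 3000 to 4000 bp (2123 bp, against 2133 bp from 2000 to 3000 bp), and for the stronger score except in the same class (444, against 452).

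Peaks covered 40.7% of a run's span at the median (quartiles 35.3 and 47.3%, range 24.4 to 85.9%). The most covered run, 2R:8475191-8481736, held 4 peaks with widths of 2718, 922, 1055 and 925 bp and scores of 291, 267, 318 and 257. The distances between them were 688, 41 and 197 bp, so the run is close to continuous, and its 4 scores lie near the autosomal median. Next came 2R:6695327-6701349 (78.8%), 3L:18812700-18816199 (76.2%), 2L:13829125-13836161 (72.0%) and 3L:16573991-16584437 (71.0%). The run on 3L from 18812700 was also the shortest, at 3.50 kb. It joined 3 weak peaks with scores of 64.9, 58.7 and 70.7 to a final peak of 505. The least covered runs were 3R:12817268-12828635 (24.4%), 3R:25040040-25055845 (25.5%), 2R:8026153-8039106 (27.1%), 2L:10331572-10344863 (27.1%) and 3R:12465867-12478235 (27.2%).

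The run with the most peaks was also the longest, 2R:14012660-14048750, with 9 peaks over 36.1 kb. From first to last its peaks scored 485, 159, 271, 177, 813, 321, 580, 657 and 749. Their widths were 1697, 1254, 1291, 1021, 2552, 886, 1498, 2982 and 1070 bp. None of the 9 belonged to the highest decile by score, but 7 lay above the autosomal median, and the fifth and eighth were broad. The eighth, 2R:14043373-14046354, was the third widest of all peaks in runs.

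The 3 runs of 8 peaks were 2R:19731788-19757920, 3R:11032018-11055840 and 2R:2540006-2563483, spanning 26.1, 23.8 and 23.5 kb. Peaks of the first scored 215, 404, 54.3, 282, 64.1, 578, 744 and 64.3. Those of the second scored 55.3, 541, 219, 72.3, 62.5, 118, 636 and 236, and those of the third 236, 155, 67.5, 578, 264, 62.3, 357 and 134. In each of them the strongest peak lay inside, and peaks near the lowest score of the list stood between stronger ones.

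Runs of 7 peaks differed widely in strength. On 2L, the run 2L:18687906-18709518 had scores of 565, 397, 1138, 57.2, 523, 270 and 926. The run 2L:16727025-16744089 on the same arm had scores of 222, 72.6, 59.9, 55.2, 154, 292 and 83.5. The peaks of 2R:8049605-8072294 scored 590, 459, 672, 556, 384, 187 and 284, and all but 1 of them lay above the autosomal median. Those of 3L:9434482-9456149 scored 465, 629, 61.2, 635, 371, 302 and 68.0. Of the 17 runs of 6, the pair with the longest spans, 3R:25862031-25884450 and 2L:1156950-1178166, completed the 10 named for their number of peaks. The second had scores of 417, 89.2, 162, 460, 670 and 234.

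**Figure D5:**
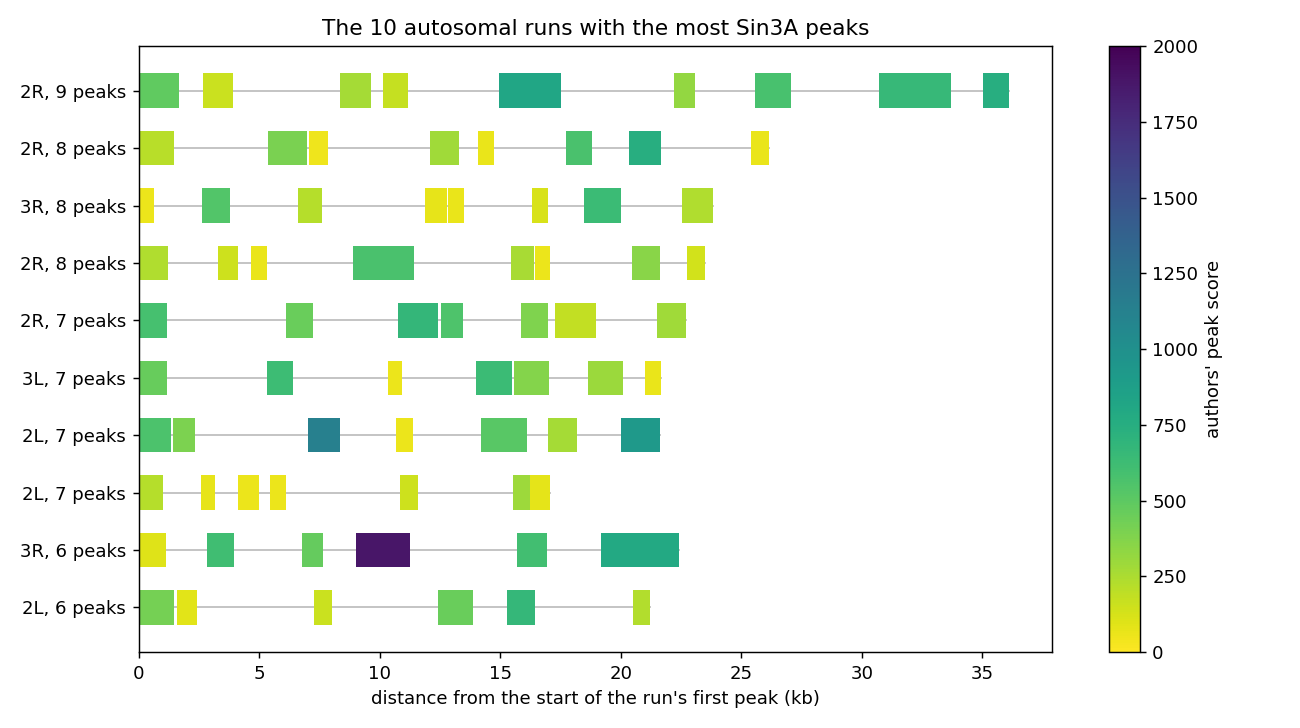
The 10 autosomal runs with the most peaks (ties among runs of 6 settled by longer span), 1 per row, drawn to scale as distance in kb from the start of the first peak (x axis), with each peak as a bar of its own width coloured by the authors' score. The strongest peak, 1883 in the 3R run of 6, stands between peaks of 476 and 603. The peak of 1138 in the 2L run that starts at 18687906 is followed by one of 57.2, near the lowest score of the list.

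The strongest peak in any run was 3R:25871050-25873283, with a score of 1883 and rank 12 among all autosomal peaks. Its run on 3R had scores of 99.0, 614, 476, 1883, 603 and 790, and its last peak, 3R:25881221-25884450, was at 3230 bp the widest in any run. The next strongest were 2R:5464810-5466789 (1708), 3L:9846962-9848641 (1575), 2L:276733-278134 (1548), 3R:25829676-25831459 (1531) and 3L:8108426-8109968 (1526). They were followed by 3R:8251122-8252177 (1439), 2R:19441310-19442518 (1409), 3R:1480039-1481552 (1374) and 3R:27043917-27045750 (1354). The peak on 2R at 5464810 opened a run whose other 5 peaks scored 50.7, 160, 176, 92.8 and 492. The peak on 3R at 25829676 closed a run whose other peaks scored 330, 397 and 60.9. After the one on 3R, the widest peaks in runs were 3R:24976943-24979959 (3017 bp), the 2R peak of 2982 bp described above, 2L:4967035-4969923 (2889 bp) and 2R:5030552-5033336 (2785 bp).

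A few runs were weak or strong throughout. The weakest, 3R:4548692-4558497, had scores of 94.5, 65.0, 61.4 and 50.3, and 2R:17960460-17968132 had 131, 69.1, 50.4 and 111. In 2L:10476866-10489565 the highest score was 175, in 3R:12258694-12269364 it was 176 and in 2R:11563218-11570800 it was 195. All 5 had 4 peaks. At the other end, 2L:7026401-7042888 had scores of 523, 700, 1051 and 449, and 3L:3806159-3819281 had 754, 559, 584 and 432. These were the 2 runs in which every peak lay at or above the autosomal median. Next by their lowest score came 2R:8475191-8481736 (257), 3R:27038679-27048764 (239) and 3R:7034833-7048487 (223). Each of them held at least 1 peak below the autosomal median of 265, so they were not strong throughout.

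Runs were mostly far apart. The distance from one run to the next on the same arm had a median of 364 kb (quartiles 132 and 795 kb), and the nearest peak outside a run, on either side, lay 9.51 kb away at the median (quartiles 6.79 and 16.9 kb). In 12 places neighbouring runs were no more than 20 kb apart, which involved 24 runs, or 15.1% (interval 9.92 to 21.6). The closest were 3L:9419087-9428810, with 4 peaks, and the run of 7 that starts at 9434482, which a gap of 5.67 kb parted. On 2R, the run of 4 at 8026153-8039106 and the run of 7 from 8049605 lay 10.5 kb apart. Each of these pairs held 11 peaks, as did 2R:19909289-19925987 with 2R:19944214-19957229, which lay 18.2 kb apart, and 3R:16375920-16387062 with 3R:16402283-16420194, which lay 15.2 kb apart.

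The pairs on 3L and 2R also lay in windows among the fullest. The 100 kb windows with the most peaks in runs held 11 each and were 2L:6900001-7000000, 2R:8000001-8100000, 2R:19900001-20000000, 3L:9400001-9500000 and 3R:11000001-11100000. Over 93 complete 1 Mb bins of the 4 arms, the median was 7 peaks in runs, and 20 bins held none (21.5%, interval 13.7 to 31.2). The most, 27, were found from 19 to 20 Mb on 2R, of 63 peaks in that bin, and from 4 to 5 Mb on 3R, of 56 peaks. The bins without peaks in runs held from 5 peaks in all (2R, 0 to 1 Mb) to 50 (2R, 12 to 13 Mb). Across bins, the numbers of peaks in runs and of other peaks had a Spearman rho of 0.23.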

How the data were processed

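The peak list of the 1 ChIP sample was analysed. Per the submitters' processing notes, alignment used Bowtie and the BDGP5 build. Per the file header, MACS made the peak calls. The sources used here do not give versions, the threshold, whether the input was used or how replicates were joined. The authors deposited a score per peak on a scale the file does not name. Depth is unknown, so precision per peak cannot be given.

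Starts were read as counting from 0 and are printed counting from 1. Width is end minus start. Runs were built by the rule given above, and X and chromosome 4 were run through it for comparison only. Named runs and peaks are the extremes in number of peaks, span, score, width, coverage and distance, as listed in the text. The members and lists were chosen with earlier results of these data known. No test was made. The procedure was tested on simulated runs. Alternatives changed the distance, its measure, the fewest peaks, the score minimum and the joining of close peaks. The gene table at hand describes another build and was not used. Python 3.11.15, NumPy 2.4.6, pandas 2.3.3, SciPy 1.17.1 and Matplotlib 3.10.9 were used.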

Additional observations from a re-analysis of the deposited data

How the results depend on the processing

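The lower score of peaks in runs kept its direction in 6 of 7 alternatives (differences of -31.3 to -75.1) and reversed to 24.975 among peaks scoring at least the autosomal median, where 50 peaks (3.05%) lay in 11 runs. The width difference reversed to 9 bp with 5 or more peaks and to 14 bp with a distance of 10000 bp, and was -124 bp at 2000 bp and -106.5 bp between midpoints. Membership depends on the rule by construction: 105 peaks (3.20%) at 2000 bp, 1553 (47.4%) at 10000 bp, 460 (14.0%) with 5000 bp between midpoints, 1303 (39.8%) with 3 or more peaks, 348 (10.6%) with 5 or more, and 412 regions (14.1%) after joining peaks up to 500 bp apart. The strongest peak lay at an end in 66.4% of runs of 3 or more, 40.3% of runs of 5 or more, 66.7% at 2000 bp and 36.4% among the higher scores. Ends were 56.6, 36.4, 46.4 and 44.8% of positions there, so the share was below that of positions only among the higher scores, in 11 runs. Coverage was 43.6% with 3 or more peaks, 29.3% at 10000 bp, 62.4% at 2000 bp, 44.3% between midpoints, 37.5% after joining and 42.8% among the higher scores. A peak of the highest decile was present in 18.2% of runs among the higher scores and in 23.3 to 35.1% elsewhere. The decile was set anew from the regions kept in each setting. Its cut among the higher scores was thus stricter than in the main list, and the 18.2% is not on the same footing. No paired analysis was possible because both replicates are joined in 1 list, and none could be left out.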
